A study of Mus musculus with 14 samples.

Results

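Transcripts of 10 genes of the acute-phase response (Saa1, Saa2, Saa3, Hp, Hpx, Orm1, Orm2, Hamp, Lbp and Apcs) were followed in liver sinusoidal endothelial cells (LSECs) after acute injury by carbon tetrachloride (CCl4). The genes were chosen by name, as the rows of the count table whose Ensembl identifiers carry these symbols in the GENCODE vM21 annotation, and all 10 were found among 54524 genes. The albumin gene Alb, the most familiar hepatocyte transcript, was read in the same samples as a reference for hepatocyte RNA. LSECs were sorted from livers of male Balb/c mice of 10 to 12 weeks by the surface marker CD32, leaving out cells with F4/80, UV autofluorescence or propidium iodide. The ages are those of the sample records, and the study's methods give an older range. The methods also name a gate against CD45, the surface protein of immune cells, and against doublets, which would remove neutrophils and macrophages. Healthy LSECs came from 4 untreated mice, and the injured groups came from mice given 1 intraperitoneal injection of CCl4 in mineral oil, 0.5 µl per gram of body weight, with livers taken at day 1 (n = 2), day 3 (n = 4) or day 7 (n = 4). The untreated mice received no oil, so effects of the oil, the injection and CCl4 cannot be told apart. The day 1 group is small because the study set aside samples with low RNA quality at that time.

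The acute-phase response is the change in plasma proteins that follows tissue injury or infection. Hepatocytes make most of these proteins when interleukin-6 family cytokines, interleukin-1 and TNF reach them, through the factors STAT3, C/EBP and NF-κB. CCl4 is turned into a toxic radical by cytochrome P450 in hepatocytes, which die around the central vein, while LSECs line the sinusoids beside them and are not the usual source of these transcripts. In a sorted bulk sample, counts of a hepatocyte gene may therefore come from the sorted cells or from RNA or fragments of other cells, and fewer cells of a type and less RNA per cell cannot be told apart.

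The 3 serum amyloid A genes lie close together on chromosome 7, and their promoters are shown because 2 of these genes had like profiles over the samples and the third did not. RefSeq promoter entries on GRCm38.p6 matched 7 of the 10 genes (Saa1, Saa2, Saa3, Hpx, Orm2, Hamp and Apcs). The runs below end at the RefSeq start or at the GENCODE gene boundary, whichever comes first, and read 5′ to 3′ on the strand of the gene. Saa1 is at chr7:46742981-46743230, minus strand, Saa2 at chr7:46751583-46751789, plus strand, and Saa3 at chr7:46715701-46715926, minus strand, and capitals mark matches to the C/EBP motif TTNNGNAA on either strand.
Saa1: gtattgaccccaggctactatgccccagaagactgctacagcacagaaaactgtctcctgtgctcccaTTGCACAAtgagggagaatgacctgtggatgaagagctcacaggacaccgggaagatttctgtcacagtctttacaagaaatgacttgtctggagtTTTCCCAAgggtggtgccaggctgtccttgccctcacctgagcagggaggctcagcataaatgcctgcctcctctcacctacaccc
Saa2: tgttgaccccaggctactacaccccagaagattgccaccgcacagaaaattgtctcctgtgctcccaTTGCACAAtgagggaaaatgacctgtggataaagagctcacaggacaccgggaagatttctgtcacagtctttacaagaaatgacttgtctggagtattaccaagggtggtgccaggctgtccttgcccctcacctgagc
Saa3: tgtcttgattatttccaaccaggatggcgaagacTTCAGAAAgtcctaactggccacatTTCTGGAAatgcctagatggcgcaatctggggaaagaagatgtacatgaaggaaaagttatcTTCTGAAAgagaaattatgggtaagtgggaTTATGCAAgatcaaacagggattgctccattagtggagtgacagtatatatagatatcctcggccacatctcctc

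Over the 250 bases before the RefSeq start, aligned end to end, the Saa1 and Saa2 promoters were 94.8% identical, while Saa3 was 50.2% identical to Saa1 and 50.6% to Saa2. The C/EBP letters matched 2 times in the printed run of Saa1, 1 time in Saa2 and 4 times in Saa3. Of 32851 promoter entries of the same length, 36.8% held this motif, so a match is common. The STAT motif TTCNNNGAA, held by 7.02% of entries, and the NF-κB consensus, held by 3.9%, had no match before the start of any of the 3 genes, while the STAT motif matched 1 time each before Hamp and Apcs. These letters are a description of the sequence and not evidence of binding.

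The level of Alb differed widely between samples, also within groups. Alb was at 95.6, 68.8, 124 and 2611 CPM (gene counts scaled to a common library size with TMM factors) in healthy replicates 1 to 4. It was at 12.3 and 59.8 CPM at day 1, at 247, 577, 1206 and 939 CPM at day 3, and at 1450, 2691, 281 and 764 CPM at day 7. Healthy replicate 4 stood apart from the other healthy samples, and both day 1 samples were below every healthy sample. The summed level of 15 hepatocyte markers moved in the same way, at 206 to 382 CPM in healthy replicates 1 to 3, 8202 CPM in healthy replicate 4, 35.1 and 134 CPM at day 1, 598 to 2292 CPM at day 3 and 737 to 5862 CPM at day 7, and only the marker Tat was at 0, in day 1 replicate 1. The 10 LSEC markers summed to 9796 to 19678 CPM over all samples and none was at 0. Total counts ran from 46401496 to 103912264 per sample, and every listed gene had at least 5 counts in every sample, above the limit of 3 counts under which a gene was called not detected.

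All 10 genes passed the filter on low counts. With edgeR's quasi-likelihood test over 26626 genes, 1 of the 10 was called (adjusted p under 0.05) in each comparison with healthy LSECs, and in each case it was Lbp. Over all genes tested, 4.06% were called at day 1, 7.19% at day 3 and 3.18% at day 7, so 1 of 10 is not far from these shares. The median log2 fold change of the 10 genes was -1.29 at day 1, 1.32 at day 3 and 1.90 at day 7, beside -0.03, 0.18 and 0.02 over all genes. Without adjustment, 4, 2 and 5 of the 10 genes had p under 0.05, beside 4759, 5906 and 5609 of all genes. The 3 comparisons share the healthy samples, healthy replicate 4 among them. In the same fit Alb had log2 fold changes of -4.33 ± 1.66 at day 1, 0.03 ± 1.06 at day 3 and 0.84 ± 1.07 at day 7. Its edgeR adjusted p was 0.178, 0.99 and 0.7.

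**Figure D1:**
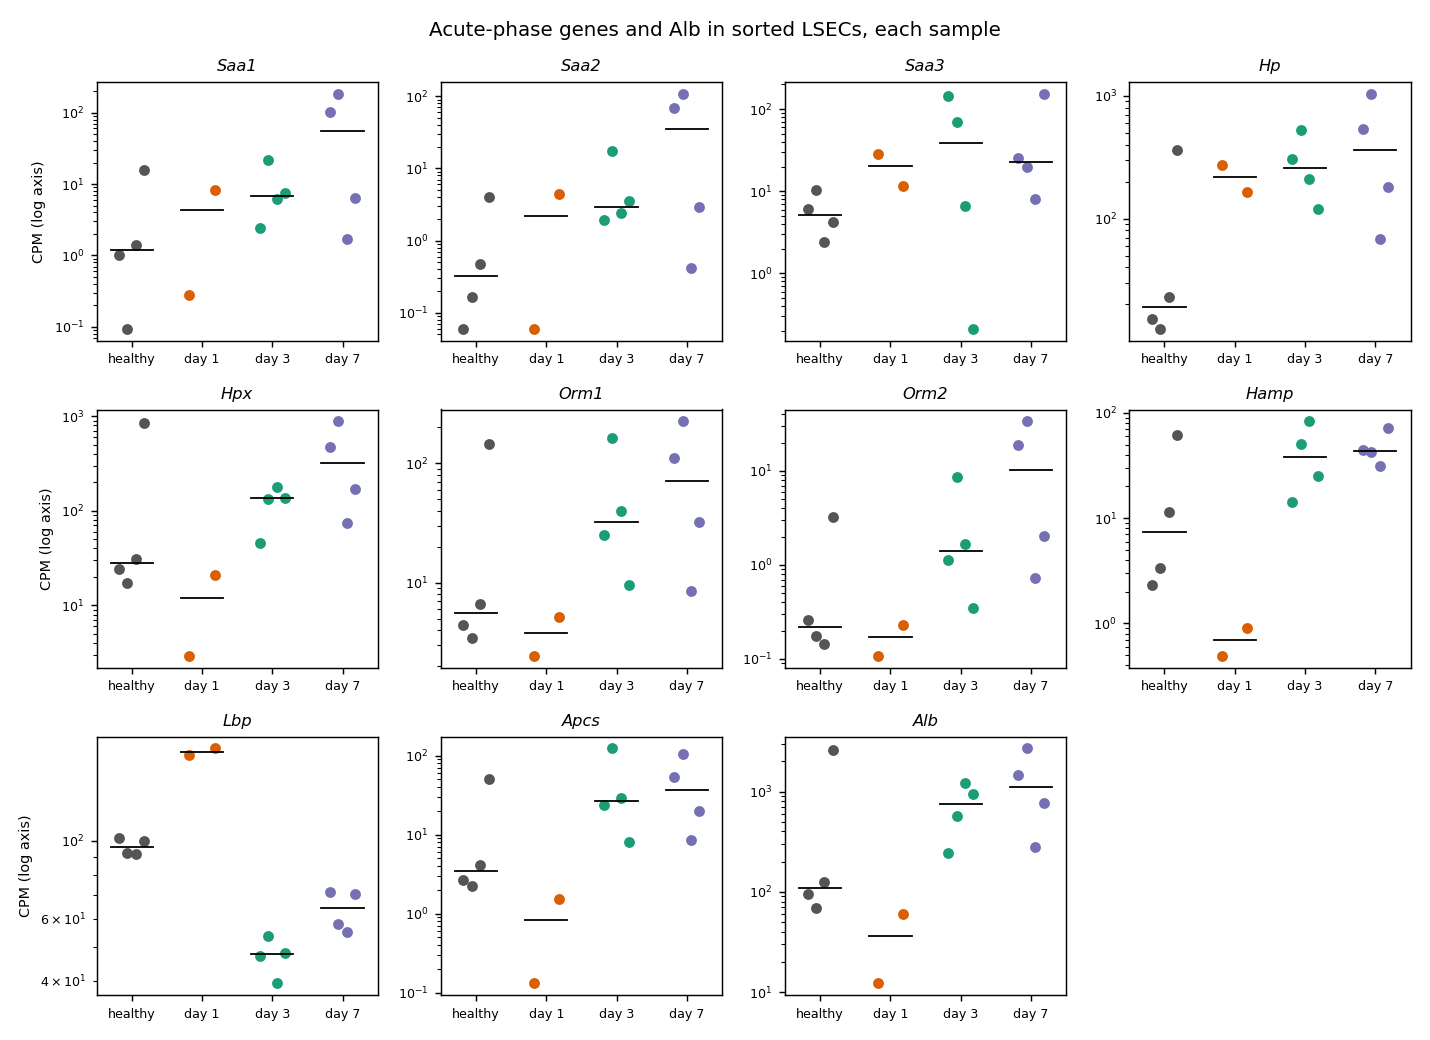
CPM (log axis) of the 10 acute-phase genes and Alb in each of the 14 sorted LSEC samples by group. Points are samples and bars are group medians, and the Lbp samples of each group lie close together, while the other genes spread widely, with healthy replicate 4 far above the other healthy samples for 8 of the 9 remaining genes.

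Lbp encodes the lipopolysaccharide-binding protein, a plasma protein that hands bacterial lipopolysaccharide to CD14. Its gene is at chr2:158306493-158332852, plus strand, on GRCm38. Lbp was at 102, 92.2, 91.3 and 99.9 CPM in healthy LSECs and at 174 and 182 CPM at day 1. It was at 47.0, 53.8, 39.4 and 48.1 CPM at day 3 and at 71.5, 57.9, 55.0 and 70.6 CPM at day 7. The day 1 samples were above all healthy samples, the day 3 and day 7 samples were below all of them, and the day 3 samples were all below the day 7 samples. Group means were 96.3 ± 5.26 CPM in healthy LSECs (SD, n = 4), 178 ± 5.72 at day 1 (n = 2), 47.1 ± 5.90 at day 3 (n = 4) and 63.7 ± 8.51 at day 7 (n = 4).

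Lbp rose at day 1 by a log2 fold change of 0.89 ± 0.17 (SE, adjusted p = 0.0104) and fell at day 3 by 1.03 on the log2 scale (SE 0.15, adjusted p = 0.00211). Its log2 fold change at day 7 was -0.59 ± 0.15 (adjusted p = 0.0432). Relative to day 1, Lbp fell by 1.92 on the log2 scale at day 3 (adjusted p = 0.0003) and by 1.48 at day 7 (adjusted p = 0.000471), comparisons in which 2.54% and 8.04% of all genes were called. The 10 LSEC markers summed to 16313 to 19678 CPM in healthy LSECs, 12416 and 15178 CPM at day 1, 10504 to 14435 CPM at day 3 and 9796 to 14131 CPM at day 7, and the part of LSEC share in the fall of Lbp was not tested. The day 3 call held without any 1 sample of the healthy and day 3 groups, with adjusted p between 0.00212 and 0.00949. The day 1 call was lost without day 1 replicate 1 (adjusted p = 0.19) or replicate 2 (0.125), and with Alb as a covariate (0.0599). The day 7 call was lost without any 1 sample of the healthy and day 7 groups other than day 7 replicate 1, with adjusted p from 0.0796 to 0.153.

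The groups of Lbp did not overlap at day 1, day 3 or day 7, as was the case for 37.9%, 14.4% and 20.8% of all genes. Lbp did not go up with hepatocyte RNA. Healthy replicate 4, where Alb was far above the other healthy samples, had 99.9 CPM of Lbp, inside the range of the other 3. Over 14 samples, log2 CPM of Lbp and Alb had Pearson's r = -0.67 (adjusted p = 0.0114) and Spearman's rho = -0.52 (adjusted p = 0.0685), both from permutation tests over 10 genes. The relation rests on the 2 day 1 samples, since r was -0.35 without them, and r of the deviations from group means was 0.12. The 3 genes with profiles most like that of Lbp over the 14 samples were Neu1, which encodes a lysosomal sialidase (r = 0.95), Serinc1 (r = 0.94) and Scarb2, which encodes a lysosomal membrane protein (r = 0.92).

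**Figure D2:**
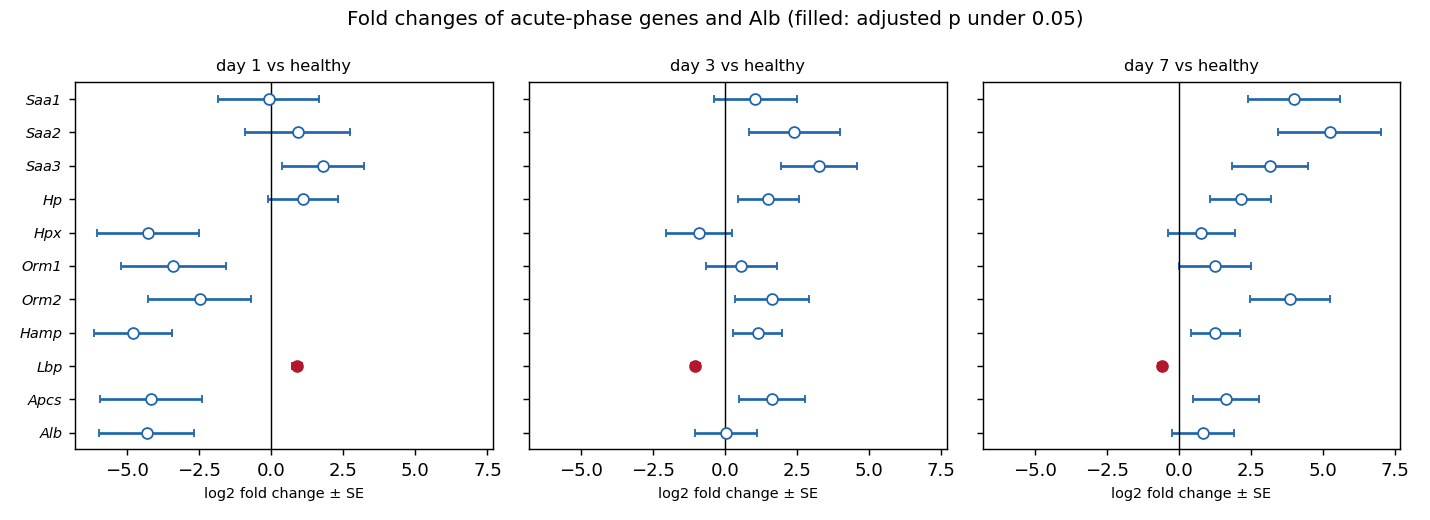
Log2 fold change and its SE for the 10 acute-phase genes and Alb at day 1, day 3 and day 7 against healthy LSECs, from edgeR over 14 samples. Filled red points have an adjusted p under 0.05 and only Lbp has them, with an SE of 0.15 to 0.17 beside 0.84 to 1.82 for the other genes and Alb.

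Hpx encodes hemopexin, which binds free heme in plasma. Its gene is at chr7:105591613-105600137, minus strand. Hpx was at 24.5, 17.1, 31.1 and 856 CPM in healthy LSECs, at 2.92 and 20.9 CPM at day 1, at 45.7, 134, 178 and 138 CPM at day 3 and at 468, 886, 74.4 and 172 CPM at day 7. The order of the samples was nearly that of Alb. Over 14 samples Hpx and Alb had r = 0.985 and rho = 0.991, with adjusted permutation p of 5e-05 and 0.0001, and the raw p of 1e-05 is the smallest that 100000 resamples can give. Without the 2 day 1 samples r was 0.978, and r of the deviations from group means was 0.991.

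Read against Alb in the same sample, Hpx had 25.6, 24.9, 25.0 and 32.8 counts per 100 Alb counts in healthy LSECs, 23.7 and 35.0 at day 1, 18.5, 23.2, 14.8 and 14.7 at day 3 and 32.3, 32.9, 26.4 and 22.5 at day 7. The day 3 samples were all below the healthy ones, by 0.62 on the log2 scale, in an exact permutation test p = 0.0286, the smallest that 4 against 4 samples allow, and adjusted p = 0.286 over 30 tests. Of all genes, 0.717% were below healthy without overlap in this ratio, with a median difference of -1.48. With the mean of the other 14 hepatocyte markers as the reference in place of Alb, the difference at day 3 was 0.53 in the other direction, also with an unadjusted exact permutation p of 0.0286, so the direction rests on the reference. At day 1 and day 7 the log2 ratio of Hpx to Alb differed from healthy by 0.11 and 0.07. Against the other 14 hepatocyte markers these differences were 0.91 and 0.48 (unadjusted exact permutation p = 0.0667 and 0.171), so their size also rests on the reference. The closest profiles to Hpx were Hrg (r = 0.992), Vtn (r = 0.991) and Serpina11 (r = 0.990), of which Hrg and Vtn encode plasma proteins made by the liver, and Alb ranked 9 among all genes. The log2 fold changes of Hpx in CPM were -4.28 ± 1.78 at day 1 (adjusted p = 0.219), -0.91 ± 1.15 at day 3 (0.697) and 0.79 ± 1.15 at day 7 (0.742).

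**Figure D3:**
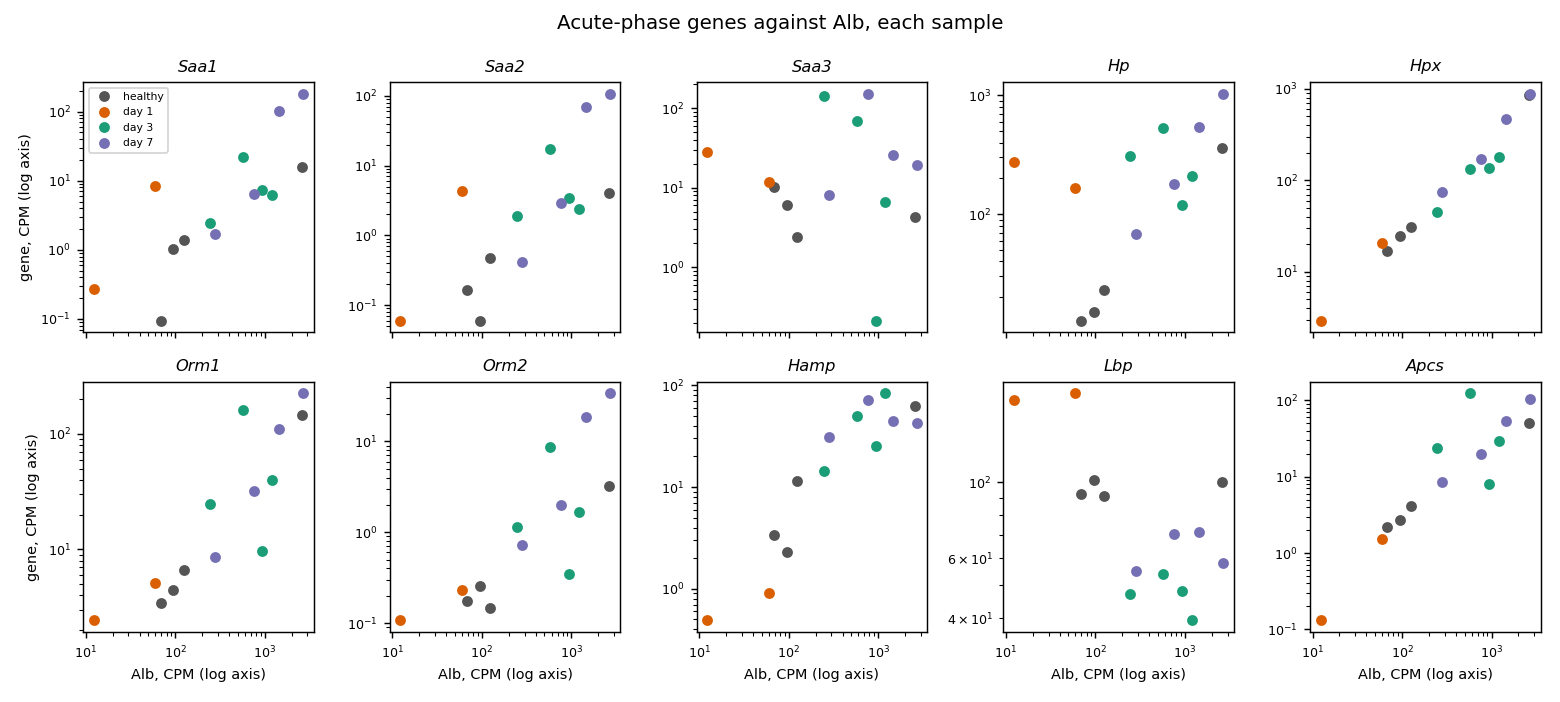
CPM of each acute-phase gene (vertical, log axis) against CPM of Alb (horizontal, log axis) in the 14 samples, coloured by group. Hpx lies close to 1 line with r = 0.985 on the log2 scale, Lbp and Saa3 do not go up with Alb, and Hp has its day 1 samples far above the trend of the rest.

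Hp encodes haptoglobin, which binds free hemoglobin, and is made by hepatocytes and also by developing neutrophils. Its gene is at chr8:109575128-109579172, minus strand. Hp was at 15.1, 12.7, 22.8 and 359 CPM in healthy LSECs, at 272 and 165 CPM at day 1, at 307, 526, 210 and 120 CPM at day 3 and at 537, 1030, 67.8 and 180 CPM at day 7. All 10 samples after CCl4 were above healthy replicates 1 to 3, and healthy replicate 4 was inside their range. The log2 fold changes were 1.09 ± 1.21 at day 1, 1.51 ± 1.04 at day 3 and 2.15 ± 1.07 at day 7, with edgeR adjusted p of 0.733, 0.442 and 0.265. Without healthy replicate 4, Hp was called at each time, with log2 fold changes of 3.67 (adjusted p = 0.0397), 3.96 (0.0207) and 4.79 (0.0151). Without that sample Alb had log2 fold changes of -1.44 (adjusted p = 0.539), 2.88 (0.0589) and 3.79 (0.0274). Alb was thus higher too at day 3 and day 7, and was called at day 7. With Alb as a covariate in the same model and all 14 samples, Hp was called at day 1 alone (log2 fold change 5.34, adjusted p = 0.0336). Limma voom with all 14 samples called Hp at each time (adjusted p = 0.0314, 0.00682 and 0.0119), and DESeq2 called it at none.

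At day 1 Hp did not follow Alb. Hp had 15.8, 18.4, 18.3 and 13.7 counts per 100 Alb counts in healthy LSECs, and 2212 and 275 at day 1. It had 124, 91.3, 17.4 and 12.8 per 100 Alb counts at day 3. At day 7 it had 37.0, 38.3, 24.1 and 23.5. The day 1 and day 7 samples were all above the healthy ones, and day 3 was split, with replicates 1 and 2 high and replicates 3 and 4 close to healthy. The distance of the day 3 group from healthy depends on the reference. The log2 ratio of Hp at day 3 differed from healthy by 1.27 against Alb (exact permutation p = 0.343). It differed by 2.42 against the other 14 hepatocyte markers (unadjusted exact permutation p = 0.0286, the smallest possible). Whether the split within day 3 holds against those markers was not tested. The log2 ratio differed from healthy by 5.56 at day 1 (exact permutation p = 0.0667, the smallest that 2 against 4 allow) and by 0.86 at day 7 (exact permutation p = 0.0286, the smallest possible), both with an adjusted p of 0.286 over 30 tests. At day 1 this is a common result, since the ratio of any gene to Alb goes up where Alb is low, and 59.5% of all genes had both day 1 samples above every healthy one, with a median difference of 2.98. At day 7 the median over all genes was -2.14, and 0.0751% of genes were above without overlap. A ratio to Alb goes down where Alb is high, and every day 7 sample had more Alb than healthy replicates 1 to 3. The low share at day 7 thus depends on Alb too. Saa1, Saa2 and Orm2 had larger differences in this ratio at day 7 (1.81, 2.25 and 1.46), with overlap between the groups.

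Neutrophil markers moved with the ratio of Hp to Alb. The 10 markers summed to 22.1 to 149 CPM in healthy LSECs, 6925 and 2760 CPM at day 1, 3343, 1973, 60.2 and 19.4 CPM in day 3 replicates 1 to 4, and 126 to 198 CPM at day 7. The 4 samples with the highest sums were the 4 with the highest Hp per Alb. Of the 10 markers 5 rose at day 1, 1 at day 3 and none at day 7, with Mmp8 at 7.23 ± 1.16 (adjusted p = 0.00357), Retnlg at 6.24 ± 1.61 (0.0465) and S100a8 at 5.91 ± 1.48 (0.0395) on the log2 scale at day 1. Camp and Elane, which mark immature neutrophils, were at most at 2.77 CPM in any sample. Ngp, another of the 10 neutrophil markers, was higher. Its mean was 5.10 CPM in healthy LSECs and 29.1 CPM at day 1, and its highest sample had 48.7 CPM. Camp, Retnlg and Elane were at 0 in day 3 replicate 4 and Elane in replicate 3. The closest profiles to Hp were F10, the gene of coagulation factor X (r = 0.97), Mrap (r = 0.95) and Glt1d1 (r = 0.93), and Alb ranked 1471 among all genes. Over 14 samples Hp and Alb had r = 0.53 and rho = 0.61 (adjusted permutation p = 0.0587 and 0.0287). Outside day 1 the relation was closer. Without the 2 day 1 samples r was 0.87, and r of the deviations from group means was 0.76. The sort left out CD45-positive cells, which neutrophils are, and the part of neutrophil RNA in the Hp result was not tested.

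**Figure D4:**
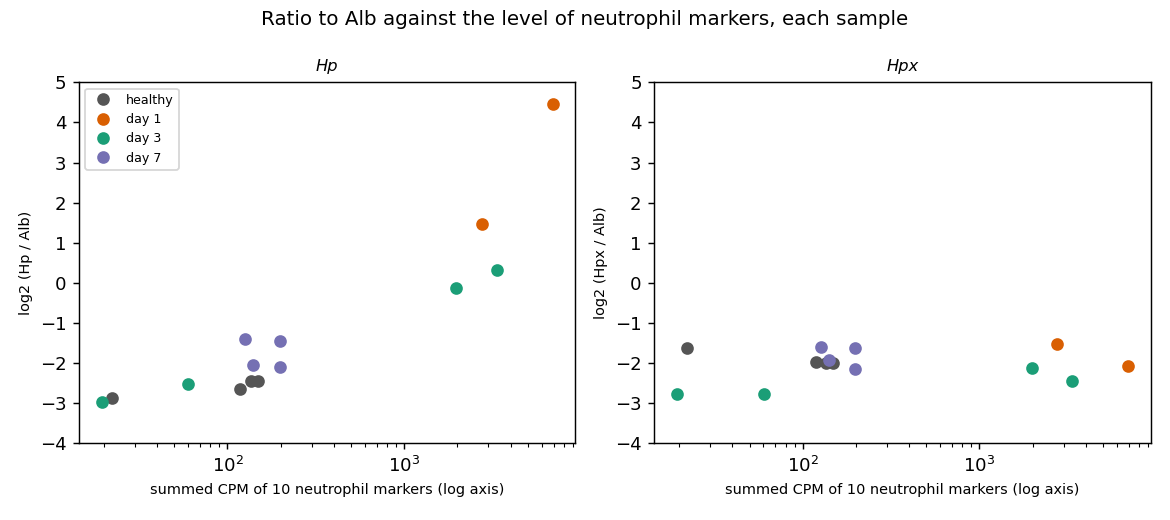
Log2 ratio to Alb (vertical) of Hp (left) and Hpx (right) against the summed CPM of 10 neutrophil markers (horizontal, log axis) in the 14 samples, on the same vertical scale. The ratio of Hp reaches 4.46 in the day 1 sample with the most neutrophil marker RNA and is at most -1.39 outside the day 1 samples and day 3 replicates 1 and 2, while the ratio of Hpx stays between -2.76 and -1.51.

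Saa1 and Saa2 encode the serum amyloid A proteins that hepatocytes release in large amounts and that travel on high-density lipoprotein. Saa1 is at chr7:46740497-46742980, minus strand, and Saa2 at chr7:46751790-46754313, plus strand. Saa1 was at 1.03, 0.094, 1.38 and 15.8 CPM in healthy LSECs, at 0.275 and 8.25 CPM at day 1, at 2.43, 21.8, 6.24 and 7.39 CPM at day 3 and at 103, 182, 1.68 and 6.42 CPM at day 7. Saa2 was at 0.0599, 0.164, 0.478 and 4.04 CPM, at 0.0598 and 4.38 CPM, at 1.91, 17.3, 2.41 and 3.49 CPM and at 68.2, 107, 0.419 and 2.90 CPM in the same order. Day 7 replicates 1 and 2 were the highest of all samples for both genes, and day 7 replicates 3 and 4 were within the healthy range. The edgeR log2 fold changes at day 7 were 4.01 ± 1.60 for Saa1 (adjusted p = 0.176) and 5.24 ± 1.79 for Saa2 (0.12). The calls depend on the test used. DESeq2 called both genes at day 7 (adjusted p = 0.0454 and 0.00904), and limma voom called neither (0.0893 and 0.136).

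The high Saa1 at day 7 was found in the 2 day 7 samples with the most Alb, and its ratio to Alb was high there too. Saa1 had 7.13 and 6.75 counts per 100 Alb counts in those 2 samples and 0.595 and 0.839 in the other 2, beside 0.137 to 1.11 in healthy LSECs. Healthy replicate 4, with as much Alb as day 7 replicate 2, had 0.604. Day 1 replicates 1 and 2 had 2.24 and 13.8, both above every healthy sample, as was the case for 59.5% of all genes at day 1. Day 3 replicate 2 had 3.78, so at day 3 and day 7 high ratios were found in some samples but not in others. The log2 ratio of Saa1 to Alb differed from healthy by 3.25, 0.81 and 1.81 at day 1, day 3 and day 7, and that of Saa2 by 3.54, 1.57 and 2.25, with exact permutation p no lower than 0.0667 and adjusted p no lower than 0.286. Against the other 14 hepatocyte markers the differences at day 3 were 1.96 for Saa1 and 2.72 for Saa2 (unadjusted exact permutation p = 0.0571 and 0.0286). Over 14 samples Saa1 and Saa2 had r = 0.95 with each other, and r = 0.80 and 0.77 with Alb (adjusted permutation p = 0.00103 and 0.00204). The next closest profiles were Cyp3a13 (r = 0.89) and Orm2 (r = 0.87) for Saa1 and Fgl1 (r = 0.91) and Orm2 (r = 0.88) for Saa2. No run of 100 bases was shared exactly between the main Saa1 transcript and any Saa2 transcript, or the reverse.

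Saa3 encodes the serum amyloid A that is made mainly outside hepatocytes, in macrophages, fat and epithelial cells. It is at chr7:46711998-46715700, minus strand. Saa3 was at 6.01, 10.4, 2.43 and 4.25 CPM in healthy LSECs, at 28.4 and 11.7 CPM at day 1, at 144, 70.2, 6.71 and 0.212 CPM at day 3 and at 25.6, 19.5, 8.14 and 153 CPM at day 7. The day 1 samples were above all healthy samples, and the day 3 samples ran from far above to below them. The log2 fold changes were 1.80 ± 1.43, 3.26 ± 1.32 and 3.16 ± 1.32 at day 1, day 3 and day 7 (edgeR adjusted p = 0.589, 0.163 and 0.192).

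Saa3 did not follow Alb (r = -0.07, rho = -0.09, adjusted permutation p = 0.805 and 0.748) and had r of 0.10 with Saa1 and 0.18 with Saa2. In the day 3 group the samples with high Saa3, replicates 1 and 2, had neutrophil sums of 3343 and 1973 CPM. Their sums of 10 macrophage and Kupffer cell markers were 2103 and 1905 CPM, beside 814 and 836 CPM in replicates 3 and 4. Outside day 3, high macrophage sums were also found with low Saa3. Healthy replicates 2 and 3 had sums of 1737 and 1964 CPM with Saa3 at 10.4 and 2.43 CPM. Day 1 replicate 1 had the highest sum, 2281 CPM, with Saa3 at 28.4 CPM. The sum was 1903 CPM in day 7 replicate 4, where Saa3 was at 153 CPM. Day 7 replicate 4, with the highest Saa3, had the highest sum of 6 mesothelial markers, 47.6 CPM beside 1.63 to 22.2 CPM in the other samples, and a neutrophil sum of 197 CPM. Day 3 replicate 4, with the lowest Saa3, also had the lowest mesothelial sum, with Msln, Upk1b, Krt19 and Lrrn4 at 0. Not all other samples followed this order. Day 1 replicate 1 had a mesothelial sum of 1.77 CPM with Saa3 at 28.4 CPM. Day 3 replicate 1 had a mesothelial sum of 7.38 CPM with Saa3 at 144 CPM. Healthy replicate 4 and day 7 replicate 2 had sums of 21.2 and 22.2 CPM with Saa3 at 4.25 and 19.5 CPM. Of the 10 macrophage markers Cd68 rose at day 3 (log2 fold change 2.68 ± 0.50, adjusted p = 0.00757) and day 7 (1.99 ± 0.48, adjusted p = 0.0429) and none was called at day 1, while the median log2 fold change of the 10 was -0.06 at day 3 and 0.09 at day 7 and the Kupffer cell marker Clec4f had a mean of 391 CPM in healthy LSECs and 142 CPM at day 3, which was not called. Wt1 was the mesothelial marker that rose, at 2.38 ± 0.61 at day 3 (adjusted p = 0.0338) and 4.44 ± 0.67 at day 7 (adjusted p = 0.00585), beside medians of -0.97 and 0.67 over the 6 markers, and Msln had a mean of 3.78 CPM in healthy LSECs and 0.984 CPM at day 3. The sort left out cells with CD45 or F4/80, and the part of macrophages, neutrophils and mesothelial cells in the Saa3 level was not tested. The closest profiles were Gm19791 (r = 0.93), Dmkn, which encodes dermokine (r = 0.92), and Traf1, which encodes an adaptor of TNF receptors (r = 0.91).

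Orm1 and Orm2 encode orosomucoids, plasma carriers of basic and lipophilic compounds. Orm1 is at chr4:63344560-63348163 and Orm2 at chr4:63362449-63365878, both on the plus strand. Orm1 was at 4.42, 3.44, 6.64 and 145 CPM in healthy LSECs, at 2.43 and 5.11 CPM at day 1, at 24.8, 162, 39.5 and 9.59 CPM at day 3 and at 111, 225, 8.58 and 31.9 CPM at day 7. Orm2 was lower, at 0.146 to 3.26 CPM in healthy LSECs, 0.108 and 0.231 CPM at day 1, 0.35 to 8.73 CPM at day 3 and 0.728 to 33.8 CPM at day 7. Both followed Alb (r = 0.87 and 0.81, adjusted permutation p = 0.00025 and 0.001) and each other (r = 0.95). The largest fold change was that of Orm2 at day 7, 3.85 ± 1.39 on the log2 scale (edgeR adjusted p = 0.138), beside 1.24 ± 1.25 for Orm1 (0.608). DESeq2 called Orm2 at day 7 (adjusted p = 0.0102) and limma voom did not (0.0519).

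Day 3 replicate 2 stood out from Alb for Orm1, with 28.1 counts per 100 Alb counts beside 4.63 to 5.54 in healthy LSECs, whose 4 values were close together. The other day 3 samples had 10.1, 3.27 and 1.02, so the group lay on both sides of the healthy samples. At day 1 Orm1 had 19.7 and 8.54 counts per 100 Alb counts, and Orm2 had 0.875 and 0.386. For both genes these were above every healthy sample, as was the case for 59.5% of all genes at day 1. Orm2 counts per Orm1 count were 0.0219 to 0.0587 in healthy LSECs, 0.0443 and 0.0453 at day 1, 0.0365 to 0.0539 at day 3 and 0.169, 0.150, 0.0848 and 0.0630 at day 7. All day 7 samples were above all healthy samples in this ratio, which was looked at after the values were seen and is given without a test. With the pseudocount of 0.05 CPM the groups overlapped. Day 7 replicate 4 was then at -3.96 on the log2 scale, below healthy replicates 1 (-3.85) and 2 (-3.95). The main transcripts of the 2 genes share 47 of 676 runs of 100 bases exactly (6.95%), so a part of the reads could be counted for either gene, while Orm2 had 9 to 26 counts in healthy replicates 1 to 3 and at day 1. After Orm2, the closest profiles to Orm1 were Grhpr and Tpmt (both r = 0.95), and after Orm1 those to Orm2 were Cyp2d12 (r = 0.92) and Apol9b (r = 0.91).

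Hamp encodes hepcidin, the hormone that closes the iron exporter ferroportin, and is induced in hepatocytes by interleukin-6 and by the BMP2 and BMP6 that LSECs release. It is at chr7:30942368-30944032, minus strand, inside the bounds of the annotated gene Gm44662 but with no shared exon. Hamp was at 2.31, 3.38, 11.4 and 61.9 CPM in healthy LSECs, at 0.490 and 0.914 CPM at day 1, at 14.3, 50.3, 83.4 and 25.3 CPM at day 3 and at 44.4, 42.7, 31.2 and 71.7 CPM at day 7. Both day 1 samples were below all others, and all day 3 and day 7 samples were above healthy replicates 1 to 3. The edgeR log2 fold change at day 1 was -4.81 ± 1.35 (adjusted p = 0.0644), and those at day 3 and day 7 were 1.13 ± 0.84 (0.479) and 1.27 ± 0.84 (0.411). DESeq2 called Hamp at day 1 alone (adjusted p = 3.54e-05), and limma voom at day 3 and day 7 alone (0.0302 and 0.00623). In the same fits DESeq2 also called Alb at day 1, and limma voom called Alb at day 7.

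Relative to day 1, Hamp rose by 5.94 ± 1.43 at day 3 (adjusted p = 0.0444) and by 6.08 ± 1.44 at day 7 (adjusted p = 0.0225) on the log2 scale, the only gene of the 10 besides Lbp called in these comparisons. With Alb as a covariate these were 2.95 (adjusted p = 0.257) and 2.99 (0.222), and neither call held without either of the day 1 samples. The day 3 call was also lost without day 3 replicate 2 (adjusted p = 0.0624), without day 3 replicate 3 (0.0759) and with replicate number as a block (0.0736). In counts per 100 Alb counts, Hamp was at 2.41, 4.92, 9.19 and 2.37 in healthy LSECs, at 3.98 and 1.53 at day 1, at 5.81, 8.72, 6.92 and 2.69 at day 3 and at 3.06, 1.59, 11.1 and 9.38 at day 7. These ranges overlapped between all groups, and the difference from healthy in the log2 ratio was -0.61, 0.46 and 0.23 (exact permutation p = 0.6, 0.457 and 0.743). Against the other 14 hepatocyte markers the difference at day 3 was 1.61 (unadjusted exact permutation p = 0.0571). Hamp and Alb had r = 0.92 (adjusted permutation p = 5e-05). Its closest profiles were the hepatocyte genes Mbl2 (r = 0.97), Akr1c6 (r = 0.97) and Gstm6 (r = 0.96).

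Apcs encodes serum amyloid P component, a pentraxin and a main acute-phase protein of mice. It is at chr1:172893961-172895041, minus strand. Apcs was at 2.68, 2.21, 4.16 and 50.6 CPM in healthy LSECs, at 0.132 and 1.51 CPM at day 1, at 23.5, 124, 29.2 and 8.04 CPM at day 3 and at 54.0, 104, 8.55 and 20.0 CPM at day 7. The day 1 samples were below all others. The log2 fold changes were -4.18 ± 1.75, 1.63 ± 1.15 and 1.64 ± 1.15 at day 1, day 3 and day 7 (edgeR adjusted p = 0.226, 0.454 and 0.438). Per 100 Alb counts, Apcs had 1.94 to 3.35 counts in healthy LSECs and 2.62 to 3.86 at day 7, while day 3 ran from 0.856 in replicate 4 to 21.4 in replicate 2, the sample that was also highest for Orm1 per Alb. Apcs and Alb had r = 0.91 (adjusted permutation p = 6.67e-05), and the closest profiles were Gm8883 (r = 0.98), Urah (r = 0.97) and Apoc4 (r = 0.97).

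Levels per length put the genes in a different order in healthy and injured samples. In median CPM per kilobase of the main transcript, healthy LSECs had 54.1 for Alb, 38.0 for Lbp, 18.5 for Hpx, 18.1 for Hamp, 14.1 for Hp, 9.24 for Saa3, 7.13 for Orm1, 3.52 for Apcs, 1.98 for Saa1, 0.493 for Saa2 and 0.281 for Orm2. At day 7 the medians were 544 for Alb, 266 for Hp, 214 for Hpx, 106 for Hamp, 92.1 for Orm1, 90.2 for Saa1, 54.5 for Saa2, 40.6 for Saa3, 38.1 for Apcs, 25.4 for Lbp and 13.4 for Orm2. The ranges over the 4 samples of every pair of neighbours overlapped in both groups. Lbp thus went from the highest of the 10 in healthy LSECs to the ninth at day 7, with sample values of 36.2 to 40.3 in healthy LSECs and 21.8 to 28.3 at day 7.

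Among 29 other acute-phase genes, 4 rose and none fell at each time, where 4.06%, 7.19% and 3.18% of all genes were called at day 1, day 3 and day 7. At day 1 they included Lcn2, which encodes the siderophore-binding lipocalin 2 (log2 fold change 6.09 ± 1.00, adjusted p = 0.00401), Lrg1 (5.12 ± 1.06, adjusted p = 0.0146) and Serpina3n (4.73 ± 1.18, adjusted p = 0.0388). Lrg1 went from a mean of 41.4 ± 55.5 CPM (SD, n = 4) in healthy LSECs to 1440 ± 289 CPM (n = 2) at day 1, when Alb was at its lowest. At day 3 Lcn2 (4.60 ± 0.89), the interleukin-1 receptor antagonist gene Il1rn (3.77 ± 0.64) and A2m (3.24 ± 0.76) had the largest rises, and at day 7 Orm3 (4.49 ± 1.08), Lcn2 (3.57 ± 0.85) and Il1rn (3.10 ± 0.62) had them. A2m and Orm3 were low throughout, at 1.08 and 0.815 CPM on average in the groups where they rose. Lcn2 is also a neutrophil granule gene, and neutrophil markers were high in the day 1 samples and in day 3 replicates 1 and 2, whose part was not tested. The median log2 fold change of the 29 genes was -2.54, -0.30 and 0.93 at day 1, day 3 and day 7. Of 10 negative acute-phase genes, which hepatocytes lower during the response, none was called at any time, and their median was -4.63, 0.09 and 0.61.

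Of 29 genes for cytokines, receptors and factors upstream of the response, 4 rose at day 1, 2 rose and 1 fell at day 3, and 2 rose and 1 fell at day 7. With 7.19% of all genes called at day 3, 3 of 29 is near the share over all genes, and the shares over all genes at day 1 and day 7 were 4.06% and 3.18%. Osm, which encodes the interleukin-6 family cytokine oncostatin M, rose at each time, from 4.90 ± 2.02 CPM (SD, n = 4) in healthy LSECs to 32.6 ± 8.17 at day 1 (n = 2), 32.6 ± 22.7 at day 3 and 21.3 ± 9.61 at day 7 (n = 4 each), with adjusted p = 0.0116, 0.00644 and 0.0317 from edgeR. Tnf rose at each time with log2 fold changes of 1.54 ± 0.32, 2.79 ± 0.29 and 1.17 ± 0.28 (adjusted p = 0.0154, 0.000607 and 0.0394). Cebpb, the gene of C/EBPβ, rose at day 1 by 1.83 ± 0.43 (adjusted p = 0.029). Il1a, which was high in healthy LSECs at 1991 ± 670 CPM (SD, n = 4), fell by 1.06 on the log2 scale at day 3 (adjusted p = 0.0373) and by 1.29 at day 7 (adjusted p = 0.0279). The median of the list was -0.20, 0.08 and 0.26. Neutrophil markers were high in the day 1 samples and in day 3 replicates 1 and 2. The part of neutrophil and macrophage RNA in the rises of Osm and Tnf was not tested.

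Of 17 genes for partners and receptors of the acute-phase proteins, 3 rose and 1 fell at day 1, 3 rose and 2 fell at day 3, and 2 rose at day 7, beside 4.06%, 7.19% and 3.18% of all genes called. Cd14, whose product receives lipopolysaccharide from the Lbp protein, rose at each time with log2 fold changes of 2.43 ± 0.41, 1.91 ± 0.36 and 1.56 ± 0.36 (adjusted p = 0.00511, 0.00817 and 0.0358), so it was also higher at day 3 and day 7, when Lbp was lower. Fpr2, a receptor for serum amyloid A (3.93 ± 0.92, adjusted p = 0.0277), and Hmox1, which encodes the heme-degrading enzyme heme oxygenase-1 (1.96 ± 0.40, adjusted p = 0.0133), rose at day 1. Lrp1, which encodes the receptor of the hemopexin-heme complex, rose at day 3 (2.72 ± 0.55, adjusted p = 0.011) and day 7 (2.68 ± 0.55, adjusted p = 0.0207). Slc40a1, the gene of ferroportin, the target of hepcidin, fell by 1.11 on the log2 scale at day 1 (adjusted p = 0.0403) and by 1.43 at day 3 (adjusted p = 0.00281), from 349 ± 91.1 CPM (SD, n = 4) to 162 ± 17.0 (n = 2) and 129 ± 24.7 (n = 4). At day 3, Fcgr1 rose (2.83 ± 0.69, adjusted p = 0.0268) and Fcgr2b fell by 0.85 on the log2 scale (adjusted p = 0.024), both genes of Fc receptors that also bind pentraxins. Fcgr2b is the gene of CD32b, and the cells were sorted on CD32, so its level was read in cells chosen for that marker. The median of the list was 1.27, 0.57 and 0.22. The part of neutrophil and macrophage RNA in the rises of Cd14, Fpr2, Hmox1 and Fcgr1 was not tested. Stellate cells and fibroblasts also express Lrp1, and 9 of 10 of their markers rose at day 3 and at day 7 and none at day 1, with a summed level of 144 to 268 CPM in healthy LSECs, 681 to 2026 CPM at day 3 and 384 to 5821 CPM at day 7, and their part in the result for Lrp1 was not tested.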

How the data were processed

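The authors deposited 1 table of whole-number read counts per Ensembl gene for 14 bulk RNA-seq samples of sorted LSECs. Total RNA was amplified with a SMARTseq v4 kit, and the reads were trimmed, checked with FastQC and AfterQC, aligned with STAR to GRCm38 and counted with StringTie, whose versions, like the annotation release and the use of strand in counting, are not given in the sources used here. The study's methods name both paired-end and single-end reads. All columns were matched to the titles of the samples, and 0 columns were unused. Gene symbols came from GENCODE vM21, in which 54495 of the 54524 identifiers were found, and promoter sequences from RefSeq on GRCm38.p6.

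The 10 genes and the gene lists were chosen with earlier results of these data known. Every listed gene and Alb is named whatever its values. From each other list up to 3 called genes in each direction with the largest log2 fold change are named, and for each of the 10 genes the 3 genes with the highest Pearson correlation of log2 CPM (prior count 2). Other markers, replicates and ratios singled out in the text were chosen after their values were seen.

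Counts were tested with edgeR 4.0.16 in R 4.3.3 (limma 3.58.1). Genes were kept by filterByExpr (minimum count 10, minimum total 15), scaled with TMM and fitted with the quasi-likelihood model to the 4 groups together. P-values were adjusted over all genes tested by the Benjamini-Hochberg method, and the threshold was 0.05. The SE of a log2 fold change is its size divided by the square root of F. CPM was computed from the deposited counts and TMM library sizes. The script was tested on simulated data with known changes. Log2 ratios to Alb used CPM with a pseudocount of 0.05 and two-sided exact permutation tests (30 tests), and correlations with Alb used 100000 permutations (10 genes), with scipy 1.17.1. The study's methods used DESeq2, which was run as an alternative (version 1.42.0). The other alternatives were limma voom, other size factors and filters, 2 groups only, a replicate block, Alb as a covariate, other references and pseudocounts for the ratio, and leaving out each sample. A sample was left out only for the comparisons that hold its group. Total counts of 46401496 to 103912264 per sample limit the counting error, which the limit of 3 counts covers alone. The labels do not say which samples share a cage or day, so p-values measure the spread between these samples.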

Additional observations from a re-analysis of the deposited data

Results flagged for a closer look

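In 63 groups of 4 samples (the 10 genes and Alb in log2 CPM, and the 10 ratios to Alb), the highest or lowest sample was tested for a gap to the others, which chance alone finds in about 5 of 100 groups. In 4 groups a sample stood apart, each time healthy replicate 4. Alb was at 11.35 and Hpx at 9.74 on the log2 CPM scale in this sample, both far above the other 3 healthy samples. The log2 ratio to Alb in the same sample was -1.61 for Hpx, the highest of the healthy group, and -4.71 for Lbp, the lowest.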

How the results depend on the processing

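Of the alternatives, 839 values kept their direction and side of the threshold, 34 came past it, 25 lost it, 85 counts or untested values moved and 52 changed direction, and the cause was not tested unless given. Depth limits mainly Saa1, Saa2, Orm2 and Apcs, whose lowest counts were 8, 5, 9 and 11.

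Of the 10 genes, DESeq2 called 4, 2 and 4 at day 1, day 3 and day 7, with Lbp among them each time. The others were Hpx, Hamp and Apcs at day 1, Saa3 at day 3, and Saa1, Saa2 and Orm2 at day 7. DESeq2 also called Alb at day 1 (log2 fold change -4.39, adjusted p = 0.0201) and in both comparisons with day 1. It did not call Alb at day 3 or day 7 against healthy. Against day 1, DESeq2 called 4 and 6 at day 3 and day 7. Limma voom called 2, 6 and 5 against healthy and 4 at day 7 against day 1. Against healthy it called Hp and Lbp at each time. The others were Saa3, Orm1, Hamp and Apcs at day 3, and Hpx, Hamp and Apcs at day 7. Limma voom also called Alb at day 7 (log2 fold change 2.60, adjusted p = 0.0372) and in both comparisons with day 1. At least 10 counts in every sample gave 2 at day 1. At day 7, 0 were called by edgeR with RLE size factors, library size only, no filter or Alb as a covariate, and 2 with only the groups compared, which also called 4 at day 7 against day 1. Lbp then had adjusted p = 0.0564, 0.127, 0.0506 and 0.0998 at day 7 in the first 4 settings, and 5 of the 10 genes had an unadjusted p under 0.05 in the edgeR model without these changes. Alb as a covariate left 1 called in each comparison with day 1. Leaving out 1 sample gave 0 to 2, 1 to 3 and 0 to 4 against healthy and 1 to 2 in both comparisons with day 1. The highest counts against healthy at day 3 and day 7 came without healthy replicate 4, where Hp, Hamp and Lbp and then Hp, Hpx, Orm2 and Hamp were called. Without that sample Alb was also called at day 7, but not at day 3.

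Over all genes at day 1, day 3 and day 7 against healthy and at day 3 and day 7 against day 1, DESeq2 called 2839, 3791, 2714, 2408 and 4576, limma voom 4308, 7265, 7047, 3344 and 7610, and the 2 groups alone 2327, 1108, 3156, 189 and 4465. Alb as a covariate gave 444 at day 1, 410 at day 7, and 30 and 104 against day 1. Leaving out 1 sample gave 164 to 810, 946 to 3314, 193 to 1509, 49 to 915 and 146 to 1950, the lowest without day 1 replicate 1 in each comparison that holds day 1. The share of called genes that were higher was 64.2% at day 3 and 68.8% at day 7, beside 75.1% and 86.8% with library size only and 47.3% at day 3 with no filter, and at day 7 against day 1 45.3% beside 56% with library size only.

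Replicate numbers did not pair the samples. Deviations from group means of the 18 same-numbered pairs had r from -0.232 to 0.0962. With the replicate block, 594, 435, 311 and 1084 genes were called at day 1, day 7 and at day 3 and day 7 against day 1. Of the 10 genes, 0 were called at day 7 (Lbp adjusted p = 0.0585) and 1 at day 3 against day 1, Saa2 at day 1 was -0.45 and Hpx at day 3 was 0.64 in log2 fold change.

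Directions that turned were of values that passed no threshold after adjustment. In log2 fold change, Saa1 at day 1 was 1.39 with limma voom, and with Alb as a covariate Saa1, Hpx, Orm1 and Orm2 at day 1 were 4.16, 0.34, 1.44 and 1.42 and Hpx at day 7 was -0.085. Hpx at day 3 was 1.45 with limma voom. Alb at day 3 was -0.0053 with DESeq2, -0.0052 with RLE, -0.12 with no filter, -0.041 with at least 10 counts and -0.075 with only the 2 groups. Without 1 sample, Saa1 and Saa2 at day 1 ran from -4.12 to 2.33 and -4.35 to 3.21, and Alb, Hpx and Orm1 at day 3 from -0.47 to 2.88, -1.32 to 2.27 and -0.69 to 3.44. The highest of these 5 ranges came without healthy replicate 4.

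In log2 ratio, with the other 14 hepatocyte markers as reference, Saa3 and Hpx at day 3 were 0.77 and 0.53 and Hamp and Apcs at day 1 were 0.19 and 0.28. With a pseudocount of 0.5 CPM, Orm1 at day 7 was -0.019, Orm2 at day 3 was -0.43 and Apcs at day 1 was 0.38. Without 1 sample, Saa3 at day 3 and day 7 ran from -2.04 to 1.63 and -0.97 to 1.20, Hpx at day 1 and day 7 from -0.16 to 0.38 and -0.0062 to 0.18, Orm1 at day 3 and day 7 from -0.67 to 0.92 and -0.16 to 0.32, Orm2 at day 3 from -0.58 to 1.14, Hamp at day 1 and day 7 from -1.33 to 0.11 and -0.18 to 0.76, and Apcs at day 3 from -0.048 to 1.498. The correlation of Saa3 with Alb was 0.014 without the 2 samples farthest from the median of Alb.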
